A study of Mus musculus with 10 samples.

Results

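The stage dependence of the Pcbp1 knockout effect was measured as a difference of differences: the log2 change between knockout (KO) and wild-type (WT) cells in induced germinal center B cells, minus the same change in naive B cells. All genes of the deposited table were members, 55492 symbols, of which 24219 were at 0 in every library and 21010 had enough counts to be tested. The 4 groups were naive splenic B cells at day 0 from WT mice (2 libraries) and KO mice (2 libraries), and induced germinal center B cells (iGCB) at day 4 from WT mice (3 libraries) and KO mice (3 libraries). KO mice carried Pcbp1 fl/fl and Mb1-Cre, a recombinase expressed from the Cd79a locus in the B lineage. The iGCB cells were B cells cultured on 40-LB feeders, fibroblasts engineered to present CD40 ligand and BAFF. The labels give no sex, age or strain, do not say whether WT mice carried Cre, and do not tie each library to its own animal. The p-values below therefore reflect the spread between libraries, which may be technical in part or, in iGCB cells, in whole. The 2 naive libraries of each genotype differed in sex by their Xist and Ddx3y counts, as given below.

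PCBP1 binds cytosine-rich stretches of RNA and acts in splicing, stability and translation of mRNA, and it also serves as a chaperone that hands iron to client proteins. A naive B cell carries IgM and IgD, circulates and makes little secreted antibody. On activation B cells divide, change their surface receptors, and a fraction turns toward plasma cells, in which XBP1 and BLIMP1 drive a large endoplasmic reticulum (ER) with its folding enzymes, translocon and COPII transport vesicles, and in which the J chain joins secreted antibodies into polymers.

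Counts per library ran from 33400672 to 63576147. B cell and stage markers fitted the labels: Fas, a death receptor raised on germinal center B cells, averaged 145 ± 6.57 CPM (counts per 1e6 of the scaled total, mean ± SD) in WT iGCB cells (n = 3) and 5.77 ± 2.39 CPM in WT naive cells (n = 2), while the complement receptor Cr2 averaged 5.24 ± 0.998 CPM and 913 ± 298 CPM in the same groups. Correlations between libraries of a group were 0.979 to 0.983 in iGCB cells and 0.934 to 0.938 in naive cells, so the naive groups were both smaller and more variable. The median SE of a KO effect was 0.5 log2 units in naive cells and 0.35 in iGCB cells, and the median SE of the difference was 0.69. The libraries of naive WT 1 and naive KO 1 had more counts for Xist than for Ddx3y and came from female mice by that measure, and the other 8 came from males.

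Pcbp1 itself was low in the KO libraries of both stages. Its level was 152 and 83.9 CPM in naive WT cells and 4.33 and 0.448 CPM in naive KO cells. In iGCB cells it was 148, 327 and 326 CPM in WT and 3.71, 1.96 and 2.59 CPM in KO. The groups did not overlap at either stage, and the log2 KO effect was -5.59 (SE 0.82) in naive cells (edgeR quasi-likelihood test, Benjamini-Hochberg adjusted p = 0.0561) and -6.60 (SE 0.71) in iGCB cells. The difference of -1.0 (SE 0.91) was not called, and it rested on 1 library: without naive KO 1 it was 1.45. An antisense transcript, 1600020E01Rik, overlaps the gene, and reads of the pair cannot be told apart where counting did not use strand. Pcbp2, the closest paralog, ran from 289 to 462 CPM over the 10 libraries, with a difference of 0.23 (SE 0.21).

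The KO effect differed between stages for 7 of 21010 genes, 0.0333% of those tested (edgeR quasi-likelihood test, Benjamini-Hochberg adjusted p under 0.05). The effect was more negative in iGCB cells for 4 genes (0.019%), Jchain, Sec24d, Creb3l2 and Fmnl2, and more positive for 3 (0.0143%), Ighd, the lincRNA Gm19585 and Zfp521. Without adjustment 1273 genes (6.06%) passed 0.05, of which 598 (2.85%) were more positive and 675 (3.21%) more negative. The number called depended on the tool and on the terms of the model. With a sex term in the same edgeR test, 21 were more positive and 87 more negative, including all 7. DESeq2 called 72 more positive and 170 more negative, including all 7, and limma-voom with library weights by stage called 0, with 719 at an unadjusted p under 0.05. The genes were then sorted. A gene was called alike where the effect averaged over both stages passed the adjusted threshold, with 109 genes (0.519%) doing so, each stage passed 0.05 unadjusted in the same direction, and the difference was neither called nor beyond 1 log2 unit. There were 51 alike genes (0.243%), 30 higher and 21 lower in KO. Of the 7 difference genes, 5 (0.0238%) changed at the iGCB stage only, 1 (0.00476%) at the naive stage only, and 1 (0.00476%) at both stages unequally. A gene of one stage is one whose effect at the other stage missed 0.05 unadjusted, which does not show that it was absent there. By these rules edgeR placed 0 genes in opposite directions, where DESeq2 placed 45. A further 230 genes (1.09%) were called at a stage but could not be sorted, since neither the difference nor the alike rule was met. All 21010 genes, with the sorted ones marked, are in the plot of the iGCB effect against the naive effect.

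**Figure D1:**
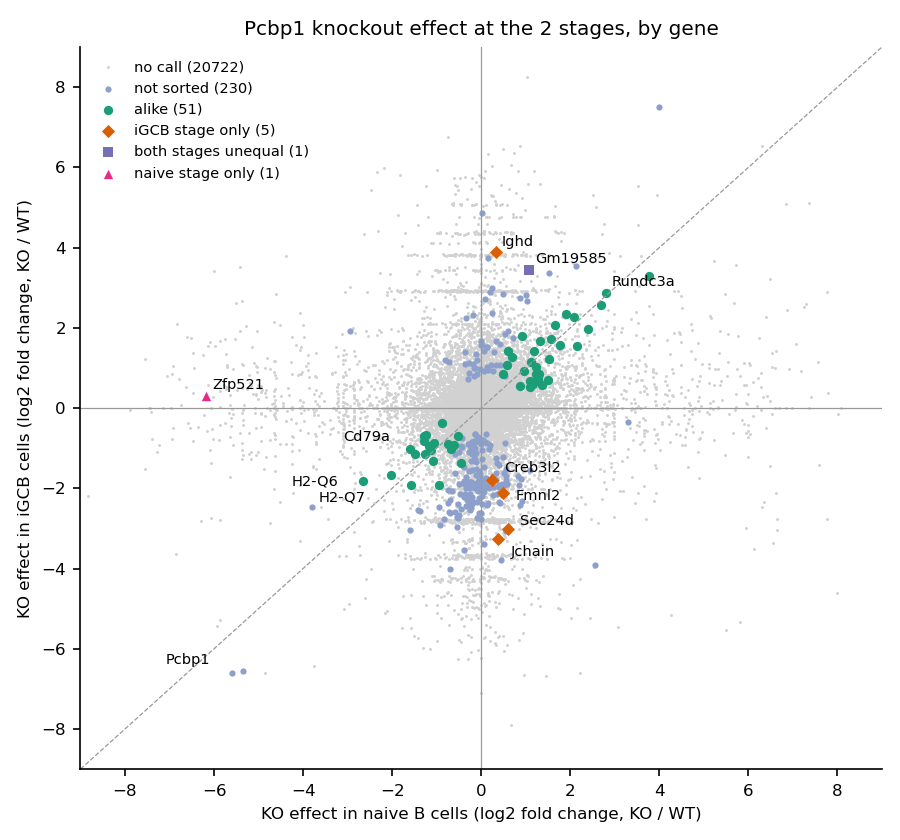
Log2 KO effect in naive cells (horizontal) against iGCB cells (vertical) for the genes tested, coloured by class with the number of genes in the legend; the dashed line marks equal effects, and 1 gene lies outside the axes. Jchain, Sec24d, Creb3l2 and Fmnl2 sit far below the line near a naive effect of 0, Ighd far above it, and the 51 alike genes spread along it.

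The 5 genes of the iGCB stage only comprised a subunit of secreted antibody, an ER transport component, an ER stress transcription factor, an actin regulator and a constant region of the naive B cell receptor. For the members of the secretory pathway the promoters are shown first, from 250 bases before to 50 bases after the RefSeq transcription start in GRCm38.p6, because elements bound by ER stress factors lie in such windows. Motifs were searched on both strands: ERSE (CCAAT, then 9 bases of any kind, then CCACG), ERSE-II (ATTGG, then 1 base of any kind, then CCACG) and UPRE (TGACGTGG), which do not overlap one another in the windows printed. Sec24d (chr3:123267246-123267545, plus strand) held a UPRE, in capitals. Creld2 (chr15:88819396-88819695, plus strand), the member of the ER folding list with the smallest p for the difference, held an ERSE on the other strand, in capitals as its reverse complement. Jchain (chr5:88527848-88528147, minus strand) and Creb3l2 (chr6:37442099-37442398, minus strand) held none of these letters and are printed in lower case.
Sec24d: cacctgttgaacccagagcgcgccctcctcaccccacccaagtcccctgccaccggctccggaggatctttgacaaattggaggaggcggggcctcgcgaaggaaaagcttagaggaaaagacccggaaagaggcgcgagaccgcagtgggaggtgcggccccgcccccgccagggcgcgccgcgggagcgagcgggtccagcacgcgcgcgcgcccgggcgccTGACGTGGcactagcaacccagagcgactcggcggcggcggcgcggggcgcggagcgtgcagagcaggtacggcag
Creld2: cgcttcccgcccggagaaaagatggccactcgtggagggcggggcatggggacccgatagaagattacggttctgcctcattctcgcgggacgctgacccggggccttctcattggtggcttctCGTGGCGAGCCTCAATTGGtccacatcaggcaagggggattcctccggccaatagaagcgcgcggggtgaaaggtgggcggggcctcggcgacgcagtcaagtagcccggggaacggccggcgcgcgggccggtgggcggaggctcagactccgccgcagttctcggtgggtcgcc
Jchain: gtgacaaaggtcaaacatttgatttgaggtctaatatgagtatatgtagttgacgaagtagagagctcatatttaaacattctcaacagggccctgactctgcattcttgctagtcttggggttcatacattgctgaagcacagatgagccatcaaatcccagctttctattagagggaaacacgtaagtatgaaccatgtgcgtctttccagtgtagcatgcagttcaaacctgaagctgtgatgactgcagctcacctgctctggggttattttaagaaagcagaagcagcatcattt
Creb3l2: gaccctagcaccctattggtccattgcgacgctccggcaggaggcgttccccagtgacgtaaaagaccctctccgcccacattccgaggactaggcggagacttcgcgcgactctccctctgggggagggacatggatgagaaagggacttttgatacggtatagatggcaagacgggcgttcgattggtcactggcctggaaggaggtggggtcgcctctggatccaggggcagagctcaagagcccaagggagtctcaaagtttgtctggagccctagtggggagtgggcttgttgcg
A UPRE was present in 121 of the 12275 promoters matched to tested genes (0.986%) and in 1 of the 4 genes whose difference was called lower, Sec24d. An ERSE was present in 20 of all promoters (0.163%). Of the 27 genes of the ER folding list with a promoter in the table, 9 held it (33.3%): Calr, Canx, Creld2, Derl3, Dnajc3, Hsp90b1, Hspa5, Pdia6 and Syvn1. ERSE-II was present in 10 promoters overall (0.0815%) and in 2 of the 27, Dnajb11 and Herpud1. Of the 36 alike genes with a promoter, 0 held an ERSE, an ERSE-II or a UPRE. A match describes the letters in the window and is not a measured binding site. The share in the ER folding list is set by sequence and by the choice of list, and does not measure the KO effect.

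Jchain, which encodes the joining chain of polymeric IgM and IgA, had the smallest p of the difference. It was at 267 and 231 CPM in naive WT and 268 and 381 CPM in naive KO. In iGCB cells it was at 257, 178 and 350 CPM in WT against 22.5, 31.1 and 28.1 CPM in KO. The 3 KO iGCB libraries were the low ones and lay apart from the other 7, while the naive groups were separated only by the step from 267 to 268 CPM. The log2 KO effect was 0.38 (SE 0.29) in naive cells and -3.27 (SE 0.26) in iGCB cells, a difference of -3.65 (SE 0.39, 95% interval -4.51 to -2.79, adjusted p = 0.0219). Read along the other axis, Jchain changed from naive to iGCB by 0.07 in WT cells and by -3.58 in KO cells. Jchain (chr5:88519809-88527891, minus strand) has no annotated overlapping gene.

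Sec24d encodes a cargo-binding subunit of the COPII coat, which carries secretory proteins out of the ER. It was at 14.1 and 8.42 CPM in naive WT, 21.8 and 12.1 CPM in naive KO, 40.1, 41.5 and 35.9 CPM in iGCB WT, and 5.07, 4.04 and 5.41 CPM in iGCB KO. The naive groups overlapped and the iGCB groups did not, with the KO iGCB libraries below all naive ones. Sec24d changed from naive to iGCB by 1.80 in WT and by -1.81 in KO, so that the level that was raised in WT culture was lowered in KO culture. The difference was -3.61 (SE 0.42, adjusted p = 0.0243).

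Creb3l2 encodes an ER membrane transcription factor that is released by cleavage and acts on secretory genes. Its level was 36.9 and 28 CPM in naive WT, 42.1 and 34.6 CPM in naive KO, 33.1, 32.3 and 29.8 CPM in iGCB WT, and 9.35, 8 and 10.1 CPM in iGCB KO. The naive groups overlapped, and all 3 KO iGCB libraries were below the other 7. The difference was -2.04 (SE 0.28, adjusted p = 0.0421), made of a naive effect of 0.24 and an iGCB effect of -1.80. Creb3l2 differed from naive to iGCB by -0.03 in WT and by -2.07 in KO, the same pattern of a level held in WT culture and lowered in KO culture as for Jchain.

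Fmnl2, a formin that elongates actin filaments, was at 10 and 9.98 CPM in naive WT and 16.2 and 11.7 CPM in naive KO. In iGCB cells it was at 76, 52.7 and 63.9 CPM in WT and 17.2, 11.3 and 15.4 CPM in KO. The KO iGCB libraries stayed in the range of the naive KO libraries or near it, while the WT iGCB libraries were far above. Fmnl2 rose from naive to iGCB by 2.68 in WT and differed by 0.07 in KO, and the difference was -2.61 (SE 0.34, adjusted p = 0.0394). Gm26603 overlaps Fmnl2 on the other strand, and the strand setting of the counting is not given in the sources used here.

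Ighd went the other way. It encodes the delta constant region, which mature naive B cells splice to their V region to make IgD and which activated B cells lose. Its level was 2610 and 1810 CPM in naive WT and 2990 and 2540 CPM in naive KO, and in iGCB cells 16.1, 15.5 and 23.9 CPM in WT against 204, 263 and 351 CPM in KO. The naive groups overlapped, and the lowest KO iGCB library was above the highest WT iGCB library. Both genotypes fell from naive to iGCB, by 6.90 log2 units in WT and by 3.34 in KO. The KO effect was 0.32 (SE 0.30) in naive cells and 3.88 (SE 0.27) in iGCB cells, and the difference was 3.56 (SE 0.40, 95% interval 2.69 to 4.43, adjusted p = 0.0219).

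Gm19585, a lincRNA on chromosome 17, was the one gene sorted to both stages unequally, a class that asks for an adjusted call of the difference and an unadjusted p under 0.05 at each stage. Its naive effect was not called after adjustment (adjusted p = 0.208). It lies outside the rule for named genes, which leaves out predicted genes, and is given because it is 1 of 7. It was at 7.02 and 8.8 CPM in naive WT, 17 and 16.2 CPM in naive KO, 7.39, 10.3 and 10.3 CPM in iGCB WT, and 104, 115 and 87.5 CPM in iGCB KO. KO was above WT without overlap at both stages, by 1.07 (SE 0.22) in naive cells and 3.45 in iGCB cells, and the difference was 2.38 (SE 0.29, adjusted p = 0.0273). AC161258.1 overlaps it on the same strand, so reads may be shared.

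Zfp521, a zinc finger gene, was the one gene sorted to the naive stage only, and its call rests on very few counts. It was at 0.186 and 0.252 CPM in naive WT and at 0 in both naive KO libraries, against 19.7, 17.5 and 23.2 CPM in iGCB WT and 24.3, 22.5 and 27.9 CPM in iGCB KO. The fitted difference of 6.49 (adjusted p = 0.0421) depends on the prior count and bounds nothing. Both genotypes were far higher in iGCB than in naive cells.

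**Figure D2:**
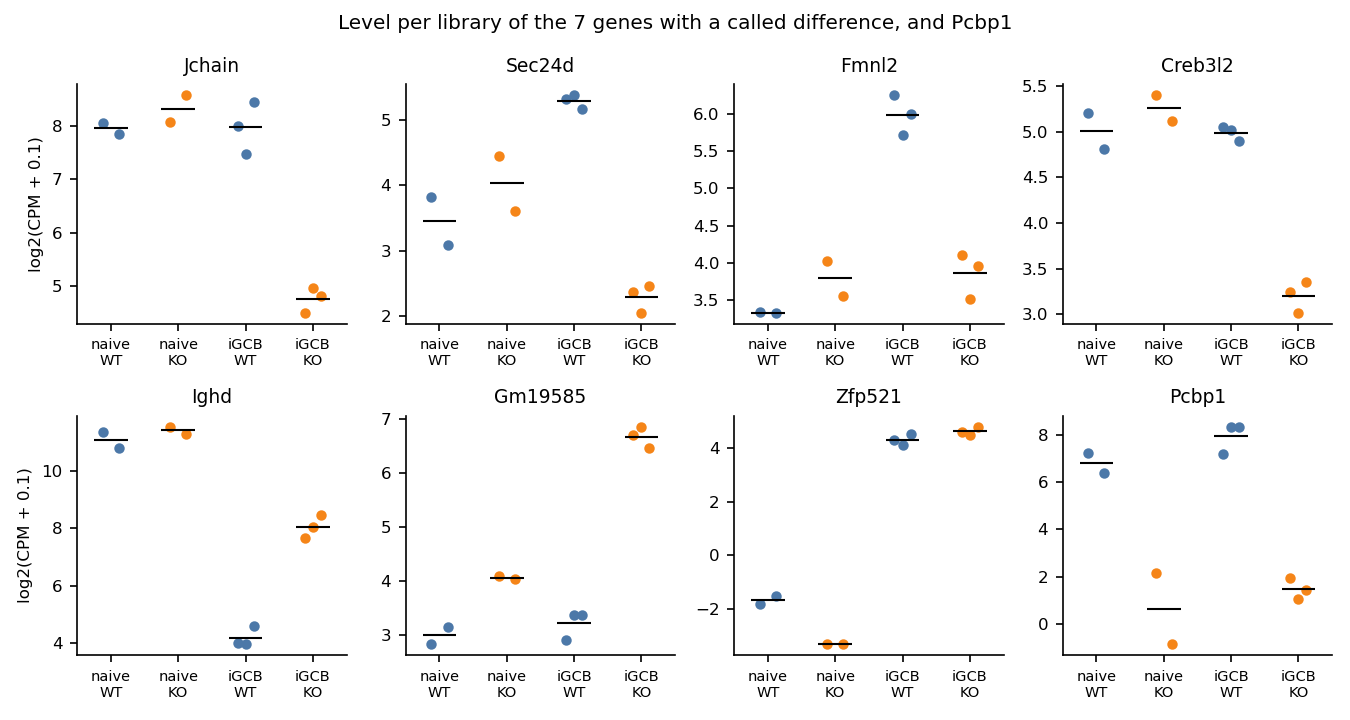
Level of the 7 difference genes and Pcbp1 in each of the 10 libraries as log2(CPM + 0.1), with a dot per library (blue WT, orange KO) and a bar at the group mean; each panel has its own scale. The 3 KO iGCB libraries stand below the WT iGCB libraries for Jchain, Sec24d, Fmnl2 and Creb3l2 and above them for Ighd and Gm19585, while the naive groups lie close together for all but Gm19585, Zfp521 and Pcbp1.

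These calls were near the threshold of the test. Leaving out single libraries took each of them past an adjusted p of 0.05: Jchain without iGCB WT 1 or any iGCB KO library, Ighd without naive KO 1, iGCB WT 1 or 2, or any iGCB KO library, and Sec24d, Fmnl2, Creb3l2 and Gm19585 without naive KO 1 or any of the 6 iGCB libraries. The sizes stayed within -3.86 to -3.37 for Jchain, 3.28 to 3.81 for Ighd, -4.02 to -3.11 for Sec24d, -2.82 to -2.34 for Fmnl2, -2.24 to -1.84 for Creb3l2 and 2.22 to 2.54 for Gm19585, with a largest adjusted p of 0.144. Zfp521 was lost in 8 of the 10 fits that left out a library, all but those without a naive WT library, and also with RLE factors, library size alone, limma-voom and without both female naive libraries.

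Next after the threshold by p, and chosen after their values were seen, were Ptger4, Adipoq and Bank1, each at an adjusted p of 0.0532. Adipoq, which encodes adiponectin, was at 0.203 and 0.252 CPM in naive WT and 0 in both naive KO libraries, so its fitted difference depends on the prior count. Bank1, a B cell scaffold protein, was at 824 and 1260 CPM in naive WT, 990 and 1390 CPM in naive KO, 18.6, 11.7 and 11.4 CPM in iGCB WT, and 84.4, 111 and 112 CPM in iGCB KO. The iGCB groups did not overlap and the naive ones did, and the difference was 2.69 (SE 0.39, adjusted p = 0.0532). Ptger4, a prostaglandin E2 receptor, was at 60 and 83.6 CPM in naive WT, 38.4 and 43.8 CPM in naive KO, 21.3, 21.8 and 15.9 CPM in iGCB WT and 42, 47.9 and 46.4 CPM in iGCB KO. KO was thus below WT in naive cells and above WT in iGCB cells without overlap, with a difference of 2.01 (SE 0.29, adjusted p = 0.0532). Further from the threshold, Bhlha15, a transcription factor that enlarges the secretory apparatus, was at 31.8, 29.4 and 31.1 CPM in iGCB WT and 1.68, 3.68 and 2.53 CPM in iGCB KO, against 7.13 and 17.1 CPM in naive WT and 6.84 and 11.8 CPM in naive KO. Its difference was -3.17 (SE 0.58, adjusted p = 0.139).

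The 51 alike genes were a different collection. Their average effect ran from 0.62 to 3.53 log2 units in size. At single stages 5 passed the adjusted threshold in naive cells, 32 in iGCB cells and 19 at neither, and the effect was larger in naive cells for 29 of the 51. The alike rule does not establish equality: the 95% interval of the difference lay within 1 log2 unit for 15 genes and reached beyond it for 36. Just inside the limit on the difference were 3300005D01Rik at 0.88, Edem1 at -0.92 and Got1 at -0.97, and just outside were Pcbp1 at -1.0, Gm37267 at -1.08 and Ighv1-84 at -1.19. Another 13 genes met every other condition and lay further outside, among them H2-Q7 at 1.32.

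Among the higher alike genes, Rundc3a had the largest effect by the rule for named genes. It encodes a RUN-domain protein best known from neurons. It was at 1.33 and 1.03 CPM in naive WT, 8.78 and 7.75 CPM in naive KO, 3.59, 2.45 and 2.24 CPM in iGCB WT, and 17.1, 23.3 and 20.5 CPM in iGCB KO. KO was above WT without overlap at each stage, by 2.80 (SE 0.34) in naive and 2.88 (SE 0.28) in iGCB cells, and the difference of 0.08 had a 95% interval of -0.86 to 1.02. The average effect of 2.84 had an adjusted p of 3.2e-04.

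Klk8 (a secreted serine protease), Muc3a (a membrane mucin), Dyrk4 (a protein kinase), Klrb1f (a lectin-like receptor of the NK gene complex) and Ffar2 (a receptor for short-chain fatty acids) rose by 1.65 to 2.68 in naive cells and by 1.96 to 2.56 in iGCB cells. Klk8 was the lowest of them, at 0.371 and 0.252 CPM in naive WT and 2.41 and 1.66 CPM in naive KO. It overlaps 2310002F09Rik on the other strand. Ffar2 was at 2.77 and 3.53 CPM in naive WT, 11.4 and 8.29 CPM in naive KO, 8.41, 8.38 and 13.3 CPM in iGCB WT, and 32.5, 52 and 42.3 CPM in iGCB KO, without overlap at either stage.

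Naip2 and Naip5, sensors of the NLRC4 inflammasome, lie next to each other on chromosome 13 and rose together. Naip5 was at 15.8 and 18.5 CPM in naive WT, 48.5 and 53.7 CPM in naive KO, 8.12, 7.41 and 3.85 CPM in iGCB WT, and 17.4, 21.5 and 24.9 CPM in iGCB KO. The KO effect was 1.57 in naive and 1.72 in iGCB cells for Naip5, and 1.76 and 1.58 for Naip2. Both effects were kept while the level in each genotype was lower in culture. The genes are close paralogs, so reads may be split between them.

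Of the lower alike genes, 7 lay in the major histocompatibility complex on chromosome 17, from H2-K1 at 33996017 to the end of H2-Q6 at 35430055. They were H2-K1 and H2-D1, class I genes that present peptides to CD8 T cells, and the class I genes H2-Q4, H2-Q5 and H2-Q6. With them were H2-Oa, a modulator of class II loading, and Ehmt2, a histone methyltransferase. H2-Q5 is annotated as a polymorphic pseudogene. Chromosome 17 held 9 of the 51 alike genes (17.6%) and 4.48% of the genes tested. In the stretch itself 98 genes were tested, and the 7 alike ones were also the only genes there called on average. The median effect over the 98 was -0.12 in naive and 0.04 in iGCB cells. The ends of the stretch were set by the alike genes after the values were seen. This leaves out H2-Q7, which starts at 35439155 and was also called on average, at -3.14. A cause acting on the region was not tested.

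H2-Q6 had the largest fall. It was at 389 and 371 CPM in naive WT, 58.3 and 61.6 CPM in naive KO, 125, 182 and 209 CPM in iGCB WT, and 45, 49.6 and 51.4 CPM in iGCB KO. The groups did not overlap, with effects of -2.66 (SE 0.23) in naive and -1.82 (SE 0.18) in iGCB cells. The 95% interval of the difference, 0.22 to 1.46, lay above 0, so the effect was alike by the rule but smaller in iGCB cells at an unadjusted threshold. H2-Q7, the neighbour, missed the rule: it was at 370 and 251 CPM in naive WT, 24.4 and 20.3 CPM in naive KO, 98.7, 165 and 174 CPM in iGCB WT, and 28.4, 22.6 and 27.6 CPM in iGCB KO, with effects of -3.80 and -2.48. In both genes WT was lower in the iGCB libraries than in the naive ones, while the KO libraries of the 2 stages lay close together. H2-Q genes are near-identical copies, and the split of reads among them is uncertain.

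Cd79a, a signalling chain of the B cell receptor and the locus from which Mb1-Cre is expressed, was at 1390 and 1170 CPM in naive WT, 432 and 414 CPM in naive KO, 791, 822 and 773 CPM in iGCB WT, and 391, 438 and 342 CPM in iGCB KO. KO was lower without overlap at both stages, by 1.60 (SE 0.18) in naive and 1.03 (SE 0.15) in iGCB cells. The labels do not say whether WT mice carried Cre, and the part of the Cre allele in this value was not tested. Its partner Cd79b differed by less at both stages: it was at 842 ± 464 CPM in naive WT (n = 2), 724 ± 91.1 CPM in naive KO (n = 2), 670 ± 67.7 CPM in iGCB WT (n = 3) and 922 ± 131 CPM in iGCB KO (n = 3).

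The remaining named lower genes were Smad1 (a BMP signal transducer), Trib2 (a pseudokinase), Itm2a (a membrane protein), Prkaca (the catalytic subunit of protein kinase A) and Dnase1l3 (a secreted nuclease). They fell by 1.08 to 1.57 in naive cells and by 1.05 to 1.92 in iGCB cells. Trib2 had a similar log2 effect at very different levels: 101 and 89.3 CPM in naive WT against 33.4 and 34.2 CPM in naive KO, and 9.69, 5.07 and 6.76 CPM in iGCB WT against 3.65, 3.12 and 2.88 CPM in iGCB KO. Itm2a moved the opposite way with culture, from 2.5 and 2.07 CPM in naive WT to 34.8, 30.1 and 25.5 CPM in iGCB WT, with KO at 1.12 and 0.762 CPM and then 14.9, 14.7 and 11.4 CPM. A KO effect alike in log2 units thus occurred in genes that culture lowered and in genes that it raised.

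**Figure D3:**
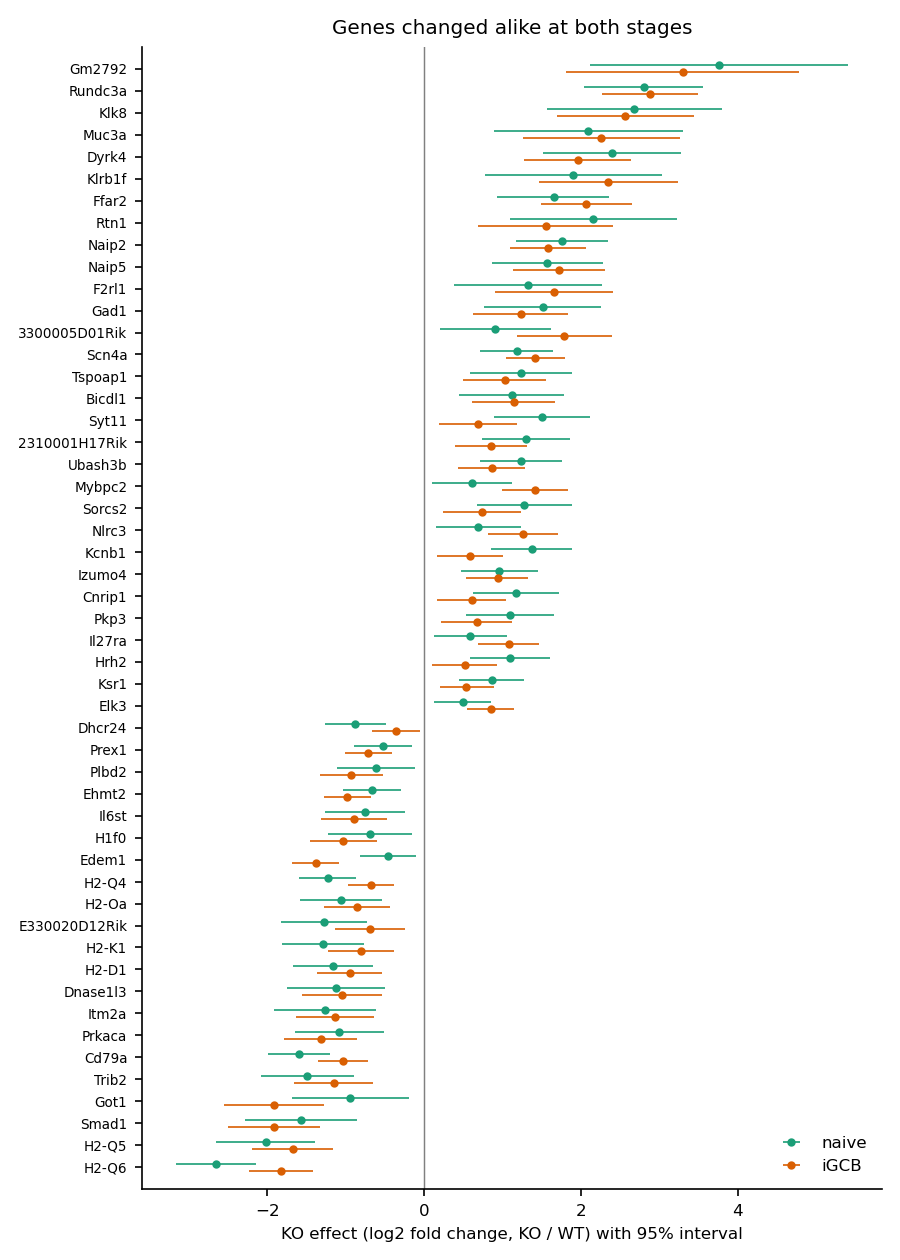
Log2 KO effect in naive cells (green) and iGCB cells (orange) of the 51 alike genes with 95% intervals, ordered by the average effect. The stage estimates of a gene are within 1 log2 unit of each other by the rule, and Edem1, Got1 and 3300005D01Rik are the most unequal.

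Of the 51 average calls, 13 remained whichever of the 10 libraries was left out: Edem1, Dyrk4, Cd79a, Ffar2, Klk8, Smad1, Rundc3a, Scn4a, Naip2, Naip5, H2-Q4, H2-Q5 and H2-Q6. All 51 kept their direction at both stages under each alternative run, which adds little, since the rule selects on direction in these same libraries. Fewer met the whole alike rule again: 13 to 42 of the 51 with a library left out, and 17 with limma-voom.

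Genes called at a single stage were then followed at the other. In iGCB cells 266 genes were called (1.27%), 72 higher (0.343%) and 194 lower (0.923%), and in naive cells 10 (0.0476%), 3 higher (0.0143%) and 7 lower (0.0333%). The naive list is 70% shared with the iGCB list and the iGCB list 2.63% with the naive one, through 7 genes: 1600020E01Rik, Cd79a, H2-Q4, H2-Q5, H2-Q6, H2-Q7 and Rundc3a, all in the same direction at both stages. Of the 72 called higher in iGCB cells, 52 (72.2%) were also above 0 in naive cells, with a median naive effect of 0.30. Of the 194 called lower, 124 (63.9%) were below 0 in naive cells, with a median of -0.14. Over all genes 51.2% had the same sign at both stages. Of the 194, V, D and J segments of the immunoglobulin loci made up 96, with a median of -1.98 in iGCB and -0.09 in naive cells, and the other 98 had medians of -1.26 and -0.16.

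That only 6 iGCB calls (5 of one stage and Gm19585) came with a called difference does not place the others at both stages. Of the 230 unsorted genes, 226 were called in iGCB cells only. The effect that gave the call is part of the difference, and the alike rule took out genes with a small difference. Large differences among the 230 therefore follow in part from the selection. The difference exceeded 1 log2 unit for 185 of the 230. It passed 0.05 unadjusted for 208, against 6.06% of all genes tested. For 4 genes the 95% interval of the difference lay within 1 log2 unit. The median half-width of that interval was 0.999, so for most of these genes neither an equal nor an absent naive effect could be shown with 2 naive libraries per genotype.

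The gene lists showed where these differences gathered. They were chosen with earlier results of these libraries known, and their counts and medians are set beside those of all 21010 genes tested, whose median difference was 0.04, with 11044 above 0 and 9966 below. In bulk RNA, fewer cells of a type and less RNA per cell cannot be told apart, which touches each list that marks a cell state. Members of a list can move together, so counts of members are not independent evidence. The spread over libraries of a list's median level, the root of the summed variances within groups, was 0.314 for all genes. It exceeded the size of the median difference for the germinal center (0.511), B cell receptor (0.33), class I (0.438) and interferon (1.187) lists. It was smaller for the plasma cell (0.763) and ER folding (0.28) lists.

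Of 24 tested members of the plasma cell program, 23 had a difference below 0 and 12 passed 0.05 unadjusted, all lower (3.21% of all genes were lower at that level). The median difference was -1.11, with a median KO effect of 0.07 in naive and -0.93 in iGCB cells. Jchain and Creb3l2 were called for the difference, and 8 members were called lower in iGCB cells. Among these, Xbp1, the factor that drives ER expansion, was at 133 and 85.3 CPM in naive WT, 138 and 112 CPM in naive KO, 1250, 1200 and 1100 CPM in iGCB WT, and 642, 654 and 565 CPM in iGCB KO. Xbp1 rose in culture in both genotypes, by 3.44 in WT and 2.31 in KO, and its difference of -1.13 had an adjusted p of 0.322. Prdm1, which encodes BLIMP1, had iGCB levels of 75.2, 35.2 and 37.5 CPM in WT and 12.7, 7.35 and 10.3 CPM in KO, without overlap, and a difference of -1.96 (adjusted p = 0.444). The median change of the list from naive to iGCB was 1.11 in WT and -0.60 in KO.

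Of the ER folding and unfolded protein response genes, which fold, inspect and remove proteins in the ER, all 34 tested had a difference below 0, from -2.53 for Fkbp11 to -0.03 for Canx, with a median of -0.70. None was called for the difference with edgeR, and 19 passed 0.05 unadjusted, all lower. DESeq2 called 9 of them lower and the fit with a sex term 4. In iGCB cells the KO effect was below 0 for 33 of the 34. Called lower there were 12: Creld2, Hyou1, Ern1, Hspa5, Edem1, Hsp90b1, Dnajc3, Pdia6, Sel1l, Manf, Herpud1 and Dnajb11. Hspa5, the ER chaperone BiP, was at 766 and 717 CPM in naive WT, 664 and 670 CPM in naive KO, 1140, 1360 and 1420 CPM in iGCB WT, and 506, 619 and 585 CPM in iGCB KO. The rise of Hspa5 with culture in WT, 0.82, had a counterpart of -0.23 in KO. Creld2, a chaperone-like ER protein whose promoter with the ERSE is printed above, was at 28.9 and 16 CPM in naive WT, 25.6 and 22.2 CPM in naive KO, 98.6, 129 and 150 CPM in iGCB WT, and 33.5, 43.4 and 32.4 CPM in iGCB KO. Its naive groups overlapped and its difference was -1.88 (SE 0.37, adjusted p = 0.178). Edem1, which directs misfolded glycoproteins to degradation, was the member that met the alike rule, with effects of -0.46 in naive and -1.38 in iGCB cells.

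Translocon, glycosylation and COPII genes had a difference below 0 for 33 of 37, with a median of -0.43. Sec24d was called, 11 members passed 0.05 unadjusted, all lower, and 6 members were called lower in iGCB cells. Rpn1, a subunit of the oligosaccharyltransferase, had a difference of -1.08 (adjusted p = 0.386), at 277, 294 and 354 CPM in iGCB WT and 140, 160 and 146 CPM in iGCB KO. Sec23b, another COPII coat gene, had a difference of -0.79 (adjusted p = 0.461), against -3.61 for Sec24d.

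V segments had a difference below 0 for 112 of 118 heavy chain, 109 of 115 kappa and 3 of 3 lambda genes, with medians of -1.99, -1.70 and -2.05. Median naive effects were -0.02, 0.04 and 0.15. No V segment was called for the difference with edgeR, while 82, 72 and 3 passed 0.05 unadjusted, all lower, and DESeq2 called 53, 21 and 2. Heavy V segments changed from naive to iGCB by a median of 0.08 in WT and -1.98 in KO, and kappa V segments by 1.27 and -0.43. V, D and J segments together held 0.704 ± 0.261% of counts in iGCB WT, 0.212 ± 0.0136% in iGCB KO (n = 3 each), 0.404 ± 0.176% in naive WT and 0.504 ± 0.0966% in naive KO (n = 2 each). Ighv2-2 gave the smallest p, at 22.6 and 14.2 CPM in naive WT, 108 and 48.1 CPM in naive KO, 25.6, 19.6 and 24.7 CPM in iGCB WT and 13.2, 10.8 and 14.8 CPM in iGCB KO, with a difference of -2.93 (adjusted p = 0.0865). V segments are similar in sequence, so the split of reads among single segments is uncertain.

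**Figure D4:**
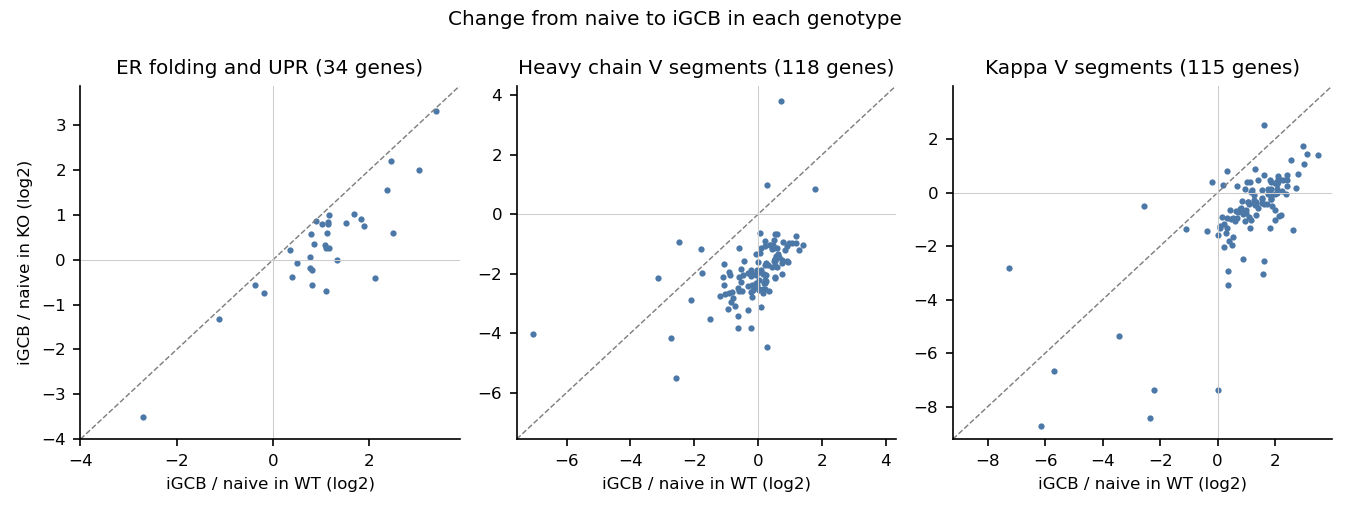
Log2 change from naive to iGCB in KO cells (vertical) against WT cells (horizontal) for each gene of 3 lists; the dashed line marks equal changes. All 34 ER genes lie below the line, as do 112 of 118 heavy chain and 109 of 115 kappa V segments.

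Constant region genes did not move as a block: 5 of 12 had a difference above 0 and 7 below. Besides Ighd, Ighg3 had a difference of 1.73 (adjusted p = 0.413), Ighm 0.76, Igkc -1.21 and Ighe -2.14. Naive follicular genes had a difference above 0 for 21 of 24, with a median of 0.60. Of these 9 passed 0.05 unadjusted and Ighd was called. In iGCB cells Ighd and Bank1 were called higher, and S1pr1, the receptor for egress from lymphoid organs, was called lower at -2.14. S1pr1 was thus a naive cell gene that did not follow the list, at 32, 15.6 and 15.5 CPM in iGCB WT and 6.64, 3.98 and 3.71 CPM in iGCB KO, with a difference of -1.76 (adjusted p = 0.368).

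Germinal center genes had a difference above 0 for 18 of 21 (median 0.25) and B cell receptor signalling genes for 21 of 25 (median 0.28), with 0 called by edgeR in either list, 6 and 4 passing 0.05 unadjusted, and 1 and 2 called by DESeq2. Nedd9, a focal adhesion scaffold, had the smallest p of the first list, with a difference of 0.96 (adjusted p = 0.221). Prkcb, a kinase between the receptor and NF-kB, had that of the second, with 0.84 (adjusted p = 0.424), made of -0.57 in naive and 0.27 in iGCB cells.

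MHC class I and peptide loading genes were below 0 at both stages, with medians of -0.87 in naive and -0.49 in iGCB cells. The difference was above 0 for 17 of 23 and had a median of 0.32. In this list 5 members were alike, 4 were called in naive cells and 5 were called lower in iGCB cells. For the difference edgeR called 0 members, 3 passed 0.05 unadjusted, all higher, and DESeq2 called 1. Interferon response genes had medians of -0.46 in naive and -0.33 in iGCB cells, and a median difference of 0.43 with 30 of 39 above 0, with 3 passing 0.05 unadjusted for the difference and 0 called by edgeR or DESeq2. Gbp2, an interferon-induced GTPase and the member with the smallest p, was called higher in iGCB cells, at 1.57 (adjusted p = 0.0426), against -0.02 in naive cells, and its difference of 1.58 was not called (adjusted p = 0.541). B2m, the light chain of class I, had effects of -1.09 in naive and -0.55 in iGCB cells, neither passing the adjusted threshold.

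Immediate early genes had a median difference of 0.60, with 19 of 22 above 0, and ribosomal protein genes 0.43, with 53 of 55 above 0. The spread of the list median over libraries was 0.436 for the immediate early list and 0.633 for the ribosomal list. No member of either list was called by edgeR or DESeq2, and 5 and 6 passed 0.05 unadjusted, all higher. The members with the smallest p were Nr4a1, a nuclear receptor induced by antigen receptor signals, at 1.05 and Rps12 at 0.78. ATF4 targets had a median of -0.27, with 1 higher and 3 lower at 0.05 unadjusted, 0 called by edgeR and 2 called lower by DESeq2. The spread of the median of the ATF4 list over libraries was 0.857. Chac1, an enzyme that degrades glutathione, had the smallest p in that list with a difference of -3.28 (adjusted p = 0.257) at levels of 0.605 to 5.33 CPM. S phase genes had a median of -0.19 with 30 of 38 below 0, and the spread of that median over libraries was 0.31. In this list 2 genes passed 0.05 unadjusted, both lower, with 0 called by edgeR and 1 called lower by DESeq2. In that list Pole2, a subunit of DNA polymerase epsilon, was at 4.98 and 4.87 CPM in naive WT, 7.87 and 6.43 CPM in naive KO, 243, 235 and 213 CPM in iGCB WT, and 141, 116 and 118 CPM in iGCB KO. Pole2 was higher in KO at the naive stage and lower in KO at the iGCB stage without overlap, with a difference of -1.42 (SE 0.23, adjusted p = 0.0865).

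Except for the mitochondrial genome genes, energy and iron lists stayed near the median of all genes. In the mitochondrial genome list 9 genes were above 0 and 4 below, and the spread of the list median over libraries was 0.828. The median difference was 0.05 for nuclear respiratory chain subunits, 0.25 for the 13 mitochondrial genome genes, 0.05 for iron uptake, storage and sensing, -0.04 for glutathione and antioxidant genes, 0.06 for glycolysis and 0.11 for cholesterol and fatty acid synthesis. None of their members was called for the difference with edgeR, at most 5 of any of these lists passed 0.05 unadjusted, and DESeq2 called 1 gene in each of the antioxidant and glycolysis lists and 0 in the others. Galk1, which phosphorylates galactose, had a difference of -1.88, Idh2, a mitochondrial isocitrate dehydrogenase, -0.79, and Fbxl5, the iron-sensing ubiquitin ligase subunit, 0.53. The p53 list (0.14), G2 and mitosis (-0.18) and PCBP and hnRNP genes (0.12) held 0 calls by edgeR or DESeq2, with 0, 0 and 1 passing 0.05 unadjusted.

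Markers of other cells varied between libraries, and their part in the results above was not tested. Summed myeloid markers were at 752 to 875 CPM in naive WT and 202 to 1170 CPM in naive KO, the lower value in naive KO 2, and at 70.7 to 132 CPM in iGCB WT and 125 to 172 CPM in iGCB KO. Summed erythroid and platelet markers were at 133 to 177 CPM in naive WT and 37.3 to 248 CPM in naive KO, and below 10 CPM in every iGCB library. Median differences were 1.15 over 23 myeloid, 1.93 over 14 erythroid and platelet, 0.72 over 25 fibroblast feeder and 0.05 over 22 T and NK genes, with 0 calls by edgeR, 2, 1, 2 and 4 passing 0.05 unadjusted, and 1, 0, 0 and 1 called by DESeq2. The spread of the list median over libraries was 1.857, 1.049, 1.407 and 1.219 in that order. It exceeded the median difference for all but the erythroid and platelet list. Fibroblast sums were 881 to 1320 CPM in iGCB WT and 877 to 1080 CPM in iGCB KO. Summed T and NK markers were 346 to 475 CPM in iGCB WT and 369 to 446 CPM in iGCB KO, against 500 to 639 CPM in naive WT and 326 to 445 CPM in naive KO, while the T cell gene Cd3e, one of them, was at most 0.501 CPM in iGCB cells.

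**Figure D5:**
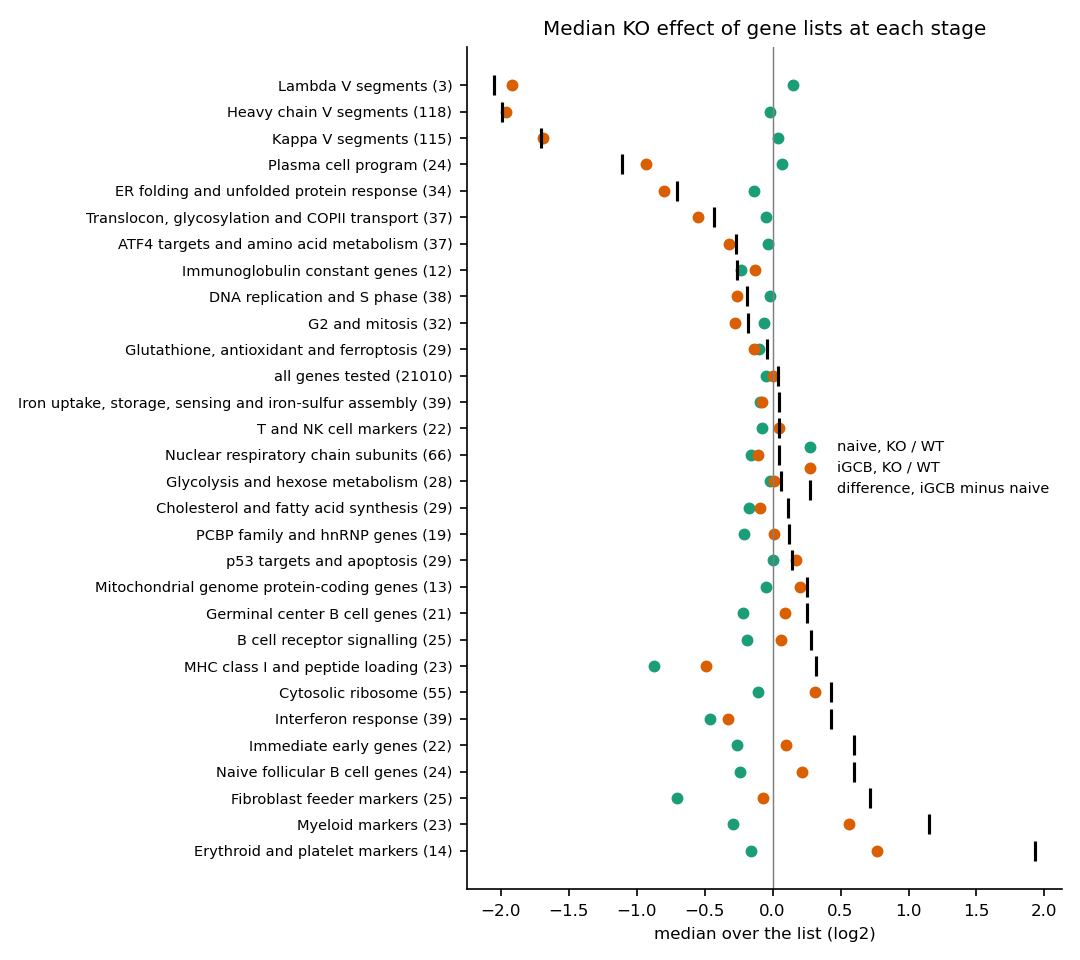
Median log2 KO effect in naive cells (green), in iGCB cells (orange) and median difference (black bar) of each gene list, with the number of tested genes in parentheses. V segments, the plasma cell program and ER lists have naive medians near 0 and iGCB medians below it, while class I genes are below 0 at both stages.

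The difference can also be read as the change from naive to iGCB in KO minus that in WT. In WT 11845 genes were called for this change (56.4%) and in KO 11811 (56.2%). Of these, 9937 were called in both in the same direction, 83.9% of the WT list and 84.1% of the KO list, and 15 in opposite directions. The median absolute difference over all genes was 0.42 against a median SE of 0.69.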

How the data were processed

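RNA of 10 libraries of mouse B cells was sequenced, 4 groups of 2 or 3. The deposited values were raw counts per gene symbol, obtained by the authors with featureCounts and the mm10 build, per the submitters' processing notes. For the aligner, annotation, versions and strand, settings were not given in the sources used here. All values were whole numbers, and odd values made up 17.7% to 26.9% of counts from 1 to 20 in a library, so counts are not all independent fragments. Totals ran from 33400672 to 63576147, and intervals cover the spread between libraries only.

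The filterByExpr function of edgeR, with a minimum count of 10 and the groups as factor, left 21010 genes. TMM scaling was used, and a quasi-likelihood model of 4 group means was fitted over all libraries, with 6 residual degrees of freedom (edgeR 4.0.16, R 4.3.3). Contrasts were the KO effect in each stage, their average, their difference, and iGCB against naive in each genotype. Two-sided p-values were adjusted over all tested genes by the Benjamini-Hochberg method with a threshold of 0.05, and SE is the absolute log2 fold change over the square root of F. The procedure was tested on simulated data. CPM values use TMM-scaled totals.

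The members, classes and 26 gene lists were chosen with earlier results of these data known. Of 771 list symbols 5 were not in the table. V segments were taken by symbol. The rule for named genes took Pcbp1 and Pcbp2. It took up to 12 higher and 12 lower difference genes by size, provided their mean log2 CPM was 1 or more and they were neither immunoglobulin segments nor genes with predicted or clone names, and 8 higher and 8 lower alike genes by the smaller of the stage effects under the same filters. It also took the genes of the rarer classes, and of each list the members called for the difference or else the one with the smallest p.

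Alternatives were RLE factors, library size alone, no low-count filter, DESeq2 1.42.0, limma-voom (limma 3.58.1) with library weights by stage, a replicate block, a sex term, leaving out libraries, other limits for the alike class and an adjusted p of 0.1. Promoters came from RefSeq (GRCm38.p6) and matched 12275 tested genes by symbol. Gene positions came from GENCODE vM21 on mm10.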

Additional observations from a re-analysis of the deposited data

Results flagged for a closer look

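For 7 genes the KO effect differed between naive and iGCB cells by the test of the difference itself. The log2 effect in iGCB minus naive cells was -3.65 for Jchain, -3.61 for Sec24d, -2.61 for Fmnl2, -2.04 for Creb3l2, 3.56 for Ighd, 2.38 for Gm19585 and 6.49 for Zfp521. For Zfp521 the naive KO libraries are at 0, so the value depends on the prior count. Zfp521 was also called in the fewest alternatives of the 7, being lost in 8 of the 10 fits that left out a library.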

How the results depend on the processing

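In the order genes more positive and more negative in the difference, then genes called in iGCB cells, in naive cells and on average, then genes sorted alike, iGCB stage only, naive stage only, both unequal and opposite, the values were 3, 4, 266, 10, 109, 51, 5, 1, 1 and 0. Without the low-count filter they were 115, 258, 841, 242, 696, 205, 208, 56, 15 and 85, with DESeq2 72, 170, 832, 171, 740, 258, 152, 28, 5 and 45, with limma-voom 0, 0, 928, 0, 38, 21, 0, 0, 0 and 0, and with a sex term 21, 87, 640, 57, 404, 182, 63, 6, 4 and 34. With the replicate block they were 19, 55, 589, 31, 360, 173, 41, 1, 4 and 27. The check made did not show pairing by number in iGCB cells, where libraries of the same number deviated together with r = 0.4, -0.1 and 0.04 over 9479 genes. In naive cells libraries of the same number did deviate together, with r = 0.59 and 0.59, where a stage of 2 pairs fixes both values alike. The naive libraries numbered 1 were the female ones in both genotypes, so number and sex cannot be told apart there. The main fit did not use the numbers as pairs. Leaving out libraries gave 0 to 31, 0 to 71, 41 to 691, 3 to 44, 24 to 328, 14 to 133, 0 to 30, 0 to 14, 0 to 3 and 0 to 52. RLE factors left 0 genes at the naive stage only, and library size alone gave 3 at the iGCB stage only, 0 at the naive stage only and 2 opposite, and moved the median difference of all genes from 0.04 to -0.10. At an adjusted p of 0.1, 112 were alike, 2 naive stage only, 2 both unequal and 6 opposite. All 7 difference genes were called without the filter, with DESeq2, the block and the sex term, and 6 with RLE factors, library size alone or without both female naive libraries, which left 1 naive library per genotype assumed to vary like the other groups. The Pcbp1 difference of -1.0 reversed to 1.45 without naive KO 1 and to 0.96 without both female naive libraries, and was -1.82 without naive KO 2. The cause of these moves was not tested. Changes from naive to iGCB stayed within 1.5 times in each alternative run for them. With 2 naive libraries per genotype the median SE of the difference was 0.69, and the difference called with the smallest absolute size was -2.04 (Creb3l2).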
